A study of Mus musculus with 4 samples.

Results

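Kinesins are motor proteins that use ATP to act on microtubules, and mammalian cells use them both in division and in transport. Mitotic kinesins build the spindle, align chromosomes and complete cytokinesis, and their transcripts are known to accumulate in the late part of the cell cycle. Transport kinesins carry vesicles, mitochondria and other cargo, and several of them are best known from axons and dendrites. The genes described here are the protein-coding mouse genes whose symbol begins with Kif and a digit in GENCODE M21. There were 39 of them, and 38 had a row among the 25261 genes measured; Kif12 was not analysed here. By known function, 12 of the 38 were grouped as mitotic, 14 as transport, 6 as ciliary and 5 as microtubule regulators or members without motor activity. The remaining gene, Kif1bp, encodes a protein that binds kinesins and is no motor, but its symbol meets the rule.

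RNA was sequenced from adult neural stem cells of C57BL/6 mice aged 8 weeks. The shOGT cells (n = 2 libraries) had received a lentivirus with a short hairpin RNA against mouse Ogt, the gene of the enzyme that places O-GlcNAc sugars on proteins, and the ctrl cells (n = 2) a lentivirus with a scrambled hairpin. Both groups thus carried a lentivirus. The labels name no separate cultures or animals for the replicates, so that every p-value rests on the spread of 2 libraries a group, and this spread may be technical only. The values are the deposited signal per gene, which behaves like reads divided by 1 factor per library close to 1.

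The knockdown was partial. Ogt measured 3379 and 3516 in shOGT cells against 4112 and 4138 in ctrl cells, 16.4% lower in the mean (log2 fold change -0.26 ± 0.04 SE, limma adjusted p = 0.00876). The signal implies 15697508 to 17753976 reads assigned to genes per library. The stem and progenitor markers Sox2, Nes, Vim and Slc1a3 were present in every library, and Sox2, the lowest of them, measured 5250 and 5334 in shOGT cells and 5339 and 5429 in ctrl cells. By contrast, 5 of 5 measured microglia and blood cell markers stayed below 20, with sums of 9.57 and 12.3 in shOGT cells and 7.98 and 8.93 in ctrl cells. Of 6 endothelial and mural markers, 4 stayed below 20. Oligodendrocyte lineage markers were abundant, and 7 of 10 had a mean of at least 100. They summed to 62641.3 and 61610.5 in shOGT cells and to 60446.7 and 61247.1 in ctrl cells. The sum does not stand for each marker. Of the 9 tested, 7 had a log2 fold change below 0 and 2 above it, with a median of -0.18. At a limma adjusted p under 0.05, 2 were lower and 0 higher, beside 2.9% and 1.96% of all genes tested. At a mean of at least 100 these shares were 5.6% and 3.62%. The cells that carried the signal of these markers were not identified. Kinesin members together took 0.334% and 0.337% of all signal in shOGT cells and 0.340% and 0.338% in ctrl cells.

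Per kilobase of annotated exon, the highest levels in both groups belonged to carriers of general use. Kif5b, the ubiquitous kinesin-1 heavy chain, averaged 862 per kb in shOGT cells and 890 per kb in ctrl cells. Kif1b, which carries mitochondria and synaptic vesicle precursors, averaged 696 per kb in shOGT cells and 673 per kb in ctrl cells. Kif1c, a fast carrier of vesicles, averaged 608 per kb in shOGT cells and 585 per kb in ctrl cells. The mitotic motor Kif11 followed, at 484 per kb in shOGT cells and 569 per kb in ctrl cells, ahead of the neuronal vesicle carrier Kif1a at 357 per kb in shOGT cells and 375 per kb in ctrl cells. At the other end, Kif2b, Kif6, Kif26a, Kif26b and Kif28 were the lowest in both groups. The exon length used here joins all annotated transcripts of a gene and can overstate the length of the RNA present, so that the order of close neighbours is approximate.

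**Figure D1:**
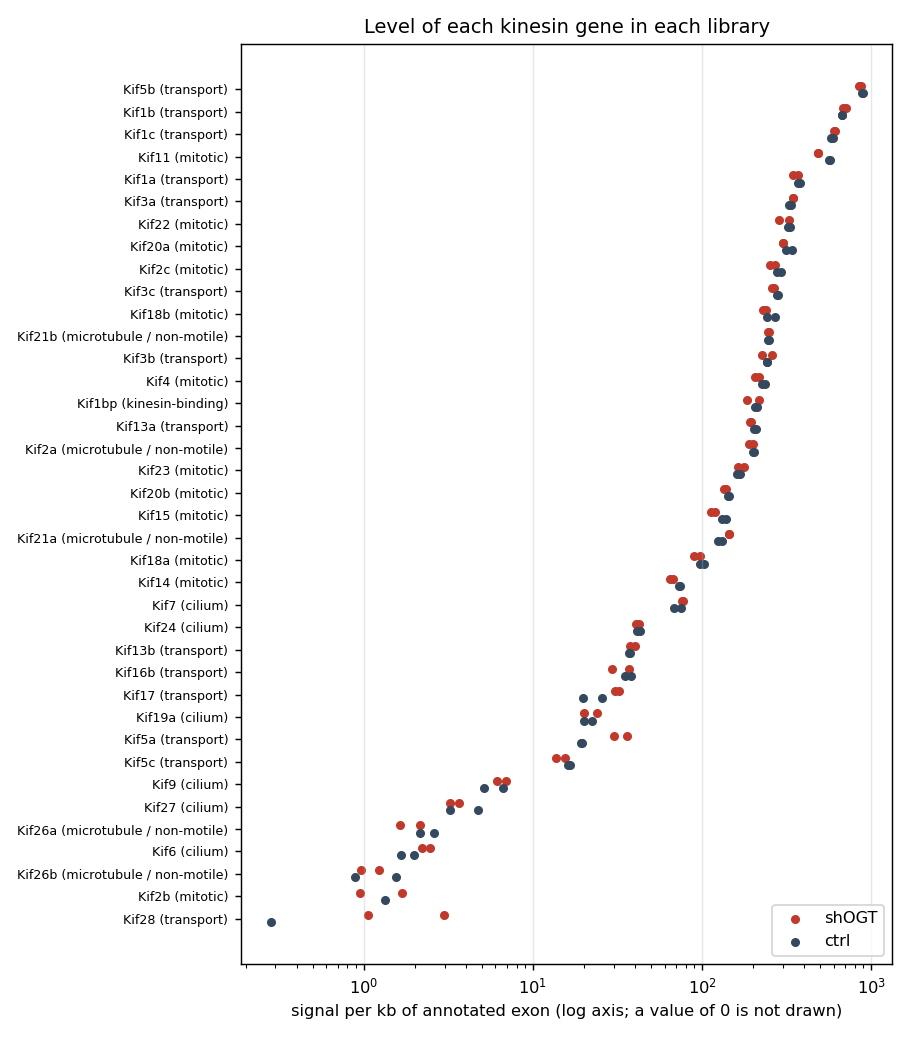
Signal per kb of annotated exon (log axis) of the 38 kinesin genes in each library, 1 point per library, with the class of each gene in brackets. Kif5b, Kif1b, Kif1c and Kif11 hold the highest levels in both groups, and Kif2b, Kif6, Kif26a, Kif26b and Kif28 the lowest.

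The comparison of shOGT with ctrl cells asks which kinesins differ once Ogt is lowered. Of the 38 members tested, 1 was lower (Kif11) and 1 was higher (Kif5a) at a Benjamini-Hochberg adjusted p under 0.05 in limma. Over all 21829 genes tested, 2.9% were lower and 1.96% higher, so that the number of kinesins called was near the background. The calls over all genes were 427 higher and 633 lower, and 593 higher and 585 lower with libraries rescaled to equal totals. By class, among members with a mean signal of at least 100, 10 of 11 mitotic kinesins and 7 of 13 transport kinesins had a log2 fold change below 0, against 52.2% of the 11080 genes of that level. The mitotic count was 9 of 11 without shOGT 2 and 10 of 11 in every other setting run. The transport count was 6 of 13 with rescaled libraries or quantile normalization and 5 of 13 without shOGT 1. The difference between the classes was not tested. At that level 5.6% of all genes were called lower and 3.62% higher.

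**Figure D2:**
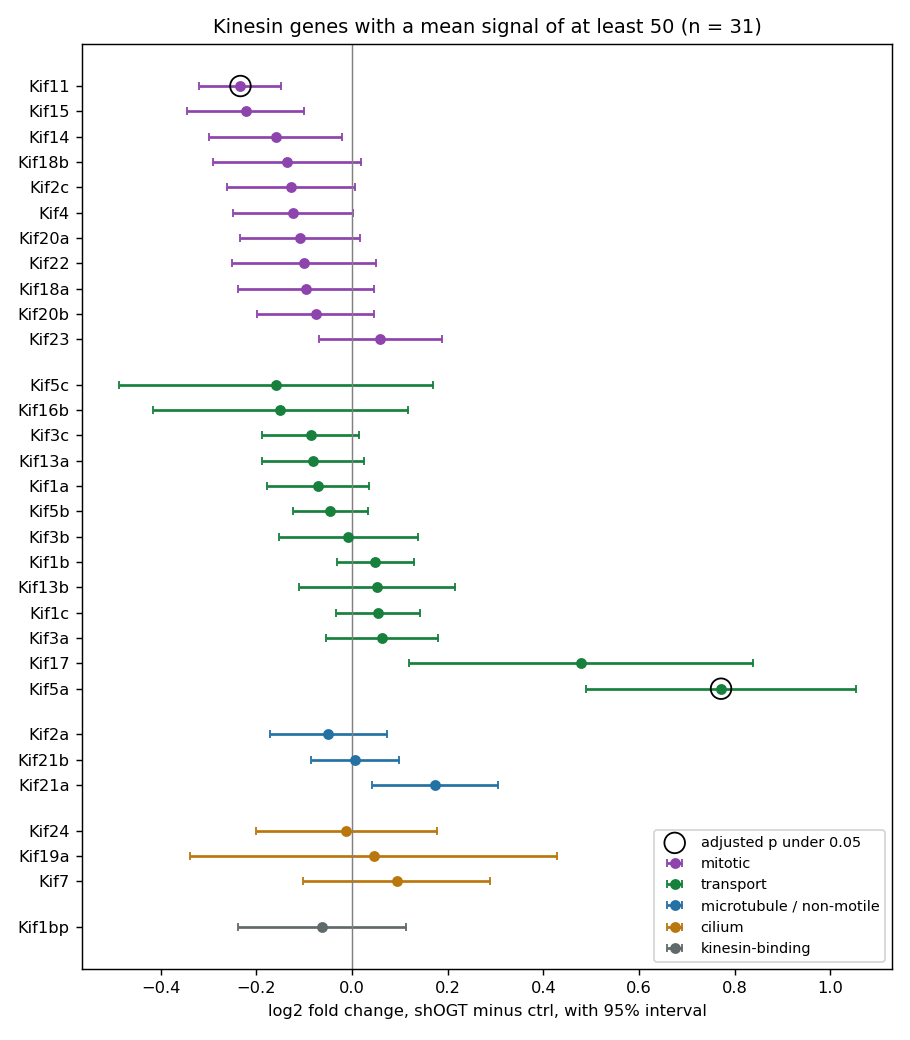
Log2 fold change of shOGT minus ctrl with its 95% interval in limma, for the 31 kinesin genes with a mean signal of at least 50, grouped by class and sorted by size within each. Points of mitotic members lie left of 0 except Kif23; circles mark Kif11 and Kif5a, the 2 members called.

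Kif11 encodes Eg5, the tetrameric motor that pushes the spindle poles apart. The gene (ENSMUSG00000012443, plus strand of chromosome 19, 37376403 to 37421859 on GRCm38) measured 3601 and 3624 in shOGT cells against 4208 and 4285 in ctrl cells. The groups did not overlap, and the mean was 14.9% lower in shOGT cells (log2 fold change -0.23 ± 0.04, limma adjusted p = 0.0106). The difference was larger than the spread between replicates, whose SDs were 15.9 in shOGT cells and 54.3 in ctrl cells (n = 2 each). Without 1 library at a time the log2 fold change stayed between -0.25 and -0.22, with an unadjusted p of 0.00505 to 0.00907, but the adjusted p was 0.297 to 0.331 in limma and the call was lost each time. Among the 633 genes called lower, 111 had a smaller change than Kif11. Kif11 alone held 24.0% and 25.0% of the summed mitotic kinesin signal in shOGT cells, against 25.9% and 26.4% in ctrl cells.

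Kif15, which helps to keep the spindle bipolar and can stand in for Kif11, measured 1308 and 1241 in shOGT cells against 1449 and 1526 in ctrl cells. Both shOGT values lay below both ctrl values, but the gene missed the threshold (-0.22 ± 0.05, limma adjusted p = 0.0508). Its adjusted p was 0.0187 at a minimum signal of 5, 0.0142 at a minimum of 10 and 0.0391 with a pseudocount of 5, so that this call depends on how low genes are treated. Neither Kif11 nor Kif15 shares exons with another annotated gene.

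The start regions of these genes are shown because short promoter elements are known from many genes of late cell division. One is the cell cycle genes homology region, with the core letters TTTGAA. Another is the CCAAT box, which the factor NF-Y binds. In the RefSeq promoter table (build GRCm38.p6) 30 of the 38 members had an entry. The 250 bases before the start of each entry were searched on both strands for these letters, each motif counted without regard to overlap with the other. The core element read from the opposite strand is TTCAAA. The box read in the same way is ATTGG. The core element was found for 18.3% and the box for 37.5% of all 27025 genes of the table. The entries of Kif14, Kif2c, Kif17 and Kif27, and 1 of those of Kif1a, start well inside the gene as GENCODE annotates it, so that no count by class is given. The entries of Kif11, Kif15, Kif22 and Kif23 start within 51 bases of the GENCODE gene start. Among other mitotic members, those of Kif18a, Kif18b, Kif20b and Kif2b do so as well, and none of them held a core element. Kif18b and Kif2b held a CCAAT box, and Kif18a and Kif20b held neither motif. The entry of Kif4, also mitotic, starts 328 bases inside the GENCODE gene. It held 2 CCAAT boxes and no core element. The relation of these motifs to the fold changes was not tested. In Kif11 and in Kif15 the core element began 19 bases before the annotated start, and in Kif22 it began 17 bases before it, in each case on the opposite strand. Kif23 held a CCAAT box 7 bases before the start and no core element. The last 100 bases before the start are given for Kif11, Kif15, Kif22 and Kif23, with every match in capitals. They come from chr19:37376282-37376381 (plus strand), chr9:122950981-122951080 (plus), chr7:127042421-127042520 (minus) and chr9:61946800-61946899 (minus), in the order printed.
Kif11: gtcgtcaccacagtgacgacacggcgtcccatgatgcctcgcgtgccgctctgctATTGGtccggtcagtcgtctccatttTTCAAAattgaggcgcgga
Kif15: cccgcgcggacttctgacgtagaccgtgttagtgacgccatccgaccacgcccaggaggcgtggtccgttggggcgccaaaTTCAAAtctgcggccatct
Kif22: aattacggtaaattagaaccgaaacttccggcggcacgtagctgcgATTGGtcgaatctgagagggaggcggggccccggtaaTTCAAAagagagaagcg
Kif23: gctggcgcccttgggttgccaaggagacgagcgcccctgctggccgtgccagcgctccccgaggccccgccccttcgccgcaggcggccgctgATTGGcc
A match is a run of letters and no evidence of binding.

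Kif22, the chromokinesin that pushes chromosome arms towards the spindle equator, measured 1601 and 1392 in shOGT cells against 1572 and 1631 in ctrl cells. Its log2 fold change was -0.10 ± 0.07 (limma adjusted p = 0.465), and it was 0.0002 without shOGT 2, so that its direction rests on this library. Kif4, the chromokinesin that works with PRC1 in the spindle midzone, measured 1199 and 1132 in shOGT cells against 1295 and 1245 in ctrl cells (-0.12 ± 0.06, adjusted p = 0.264 in limma). Both shOGT values of Kif4 were below both ctrl values, within 95% limits of -0.25 and 0.001. Kif18a and Kif18b, which act at microtubule plus ends, and Kif2c, the centromeric depolymerase MCAK, had log2 fold changes of -0.10, -0.14 and -0.13, each with groups that did not overlap and none past the threshold. In Kif18a the gap was slight, with 879 and 953 in shOGT cells against 1004 and 954 in ctrl cells.

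Of the 4 motors of cytokinesis, 3 had both shOGT values below both ctrl values. Kif20a, which brings the chromosomal passenger complex to the midzone, measured 1312 and 1310 in shOGT cells against 1473 and 1359 in ctrl cells (-0.11 ± 0.06, limma adjusted p = 0.324). Kif14, which binds citron kinase, and Kif20b, a motor of late cytokinesis, had log2 fold changes of -0.16 and -0.08, with adjusted p of 0.192 and 0.498 in limma. Kif23, the motor of the centralspindlin complex, measured 1406 and 1296 in shOGT cells against 1316 and 1275 in ctrl cells (0.06 ± 0.06, adjusted p = 0.632 in limma), so that the groups overlapped and the 95% interval ran from -0.07 to 0.19. Kif2b, a depolymerase described at kinetochores in human cells, was barely detected, with values of 2.13 and 3.77 in shOGT cells and 0 and 2.98 in ctrl cells.

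Counted by library, both shOGT values were below both ctrl values in 9 of the 11 mitotic members with a mean of at least 100, and above both in 0, where 32.1% and 27.9% of all genes of that level had such separated groups. The median log2 fold change of the 12 mitotic members tested was -0.12, beside 0.001 for all genes tested. Over all 12 members the groups were so separated in 9, where 24.3% of all genes tested had shOGT below ctrl. Summed, the mitotic kinesins measured 14982 and 14508 in shOGT cells against 16227 and 16240 in ctrl cells, 9.17% lower in the mean, a sum that was not tested. In bulk RNA, fewer dividing cells and less of these transcripts per dividing cell cannot be told apart.

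Other genes of division are given beside them. The 28 known partners of mitotic kinesins summed to 63486 and 63502 in shOGT cells against 69627 and 69011 in ctrl cells, 8.40% lower, with 6 called lower and 0 higher, where 5.6% of all genes with a mean of at least 100 were called lower and 3.62% higher. These were Ccnb1 and Cdk1, the cyclin and kinase that drive entry into mitosis (-0.34 and -0.20), Birc5 and Aurkb, subunits of the passenger complex that Kif20a moves (-0.36 and -0.29), Prc1, the midzone bundler that recruits Kif4 (-0.23), and Cep55, a factor of abscission (-0.27). Tpx2, which recruits Kif11 and Kif15 to the spindle, had -0.10 ± 0.04 (limma adjusted p = 0.23), and Racgap1, the partner of Kif23, -0.11 ± 0.04 (0.152). Of 12 proliferation markers, 4 were lower (Top2a, Pcna, Ccna2 and Ube2c) and 0 higher, beside 2.9% of all genes tested called lower and 1.96% higher. At a mean of at least 100, which 11 of the 12 had, these shares were 5.6% and 3.62%. The list summed to 52245 and 50974 in shOGT cells against 56179 and 56337 in ctrl cells, 8.26% lower. The part of cell division rate in the kinesin values was not tested. Of 13 cell cycle transcription factors and complex subunits 0 passed limma's threshold, with Foxm1, an activator of late cell cycle genes, at -0.19 ± 0.05 (adjusted p = 0.0631) and 1982 and 1840 in shOGT cells against 2209 and 2161 in ctrl cells. Of 6 kinesins with other symbols, 3 had a log2 fold change below 0 and 3 above it, and none passed limma's threshold. Cenpe, the kinetochore motor, had -0.21 ± 0.06 (limma adjusted p = 0.0733) and Kifc1, the minus-end spindle motor, -0.003 ± 0.05 (0.99). Kifc3 had 0.23 ± 0.06 (limma adjusted p = 0.0689) and Stard9 0.17 ± 0.06 (0.173), both with shOGT above ctrl.

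**Figure D3:**
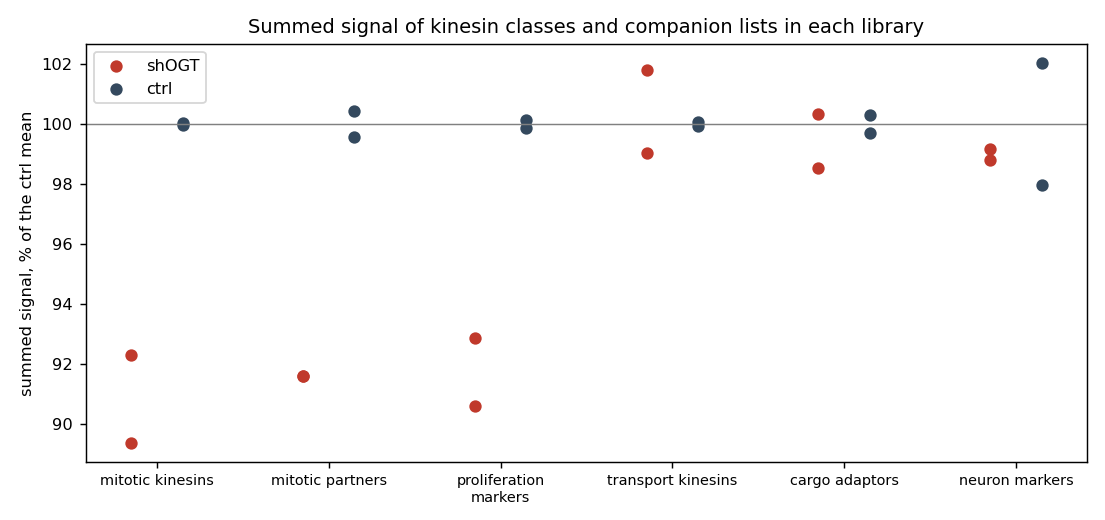
Summed signal of each class or list in each library, as a percentage of its ctrl mean. Mitotic kinesins (92.3 and 89.4), their partners (91.6 and 91.6) and proliferation markers (92.9 and 90.6) lie below both ctrl libraries in shOGT cells, and transport kinesins (99.0 and 101.8) lie on both sides of them.

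The transport kinesins summed to 33829 and 34778 in shOGT cells and to 34188 and 34134 in ctrl cells, so that the shOGT libraries lay on either side of the ctrl libraries. The median log2 fold change of the 14 members was 0.02, and -0.01 for the 13 with a mean of at least 100. Of those 13, both shOGT values were below both ctrl values in 4 and above them in 6. Kif5a, the neuronal kinesin-1 heavy chain, was the member that rose. The gene (ENSMUSG00000074657, minus strand of chromosome 10, 127225696 to 127263348) measured 212 and 252 in shOGT cells against 136 and 134 in ctrl cells, a 1.72-fold mean (log2 fold change 0.77 ± 0.13, limma adjusted p = 0.0103). Both shOGT libraries lay above both ctrl libraries, with SDs of 28.4 in shOGT cells and 1.21 in ctrl cells (n = 2 each). Without 1 library at a time the log2 fold change was 0.65 to 0.90, with an unadjusted p of 0.00485 to 0.0107 and an adjusted p of 0.297 to 0.331 in limma, so that the call was lost each time. Its change ranked 42 by size among the 427 genes called higher, whose median was 0.34.

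**Figure D4:**
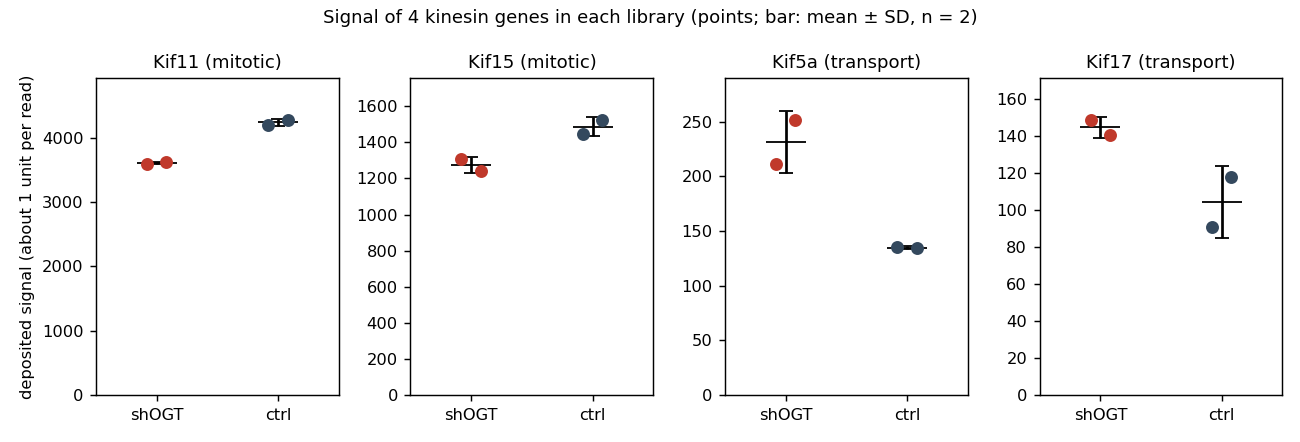
Deposited signal of Kif11, Kif15, Kif5a and Kif17 in each library (points, with mean and SD, n = 2 per group; each axis starts at 0). Kif11 and Kif15 lie lower and Kif5a and Kif17 higher in both shOGT libraries than in both ctrl libraries, and of the 4 genes Kif11 and Kif5a passed the test.

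The other kinesin-1 heavy chains were not called. Kif5b measured 6787 and 6976 in shOGT cells against 7073 and 7131 in ctrl cells (log2 fold change -0.05, 95% interval -0.12 to 0.03, limma adjusted p = 0.532). Kif5c, which is also enriched in neurons, measured 111 and 98.0 in shOGT cells against 118 and 115 in ctrl cells (-0.16, 95% interval -0.49 to 0.17). The 95% interval of Kif5a was 0.49 to 1.05, and the difference between the heavy chains was not tested. Per kb of exon, Kif5a made up 3.38% and 3.90% of the 3 heavy chains together in shOGT cells, against 2.10% and 2.06% in ctrl cells. Kif5b was the main heavy chain in both groups.

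Because Kif5a is known best from neurons, the neuron markers are given beside it. Of 13 measured markers, 1 was higher (Map2, a dendritic microtubule protein, 0.15) and 1 lower (Gap43, a growth cone protein, -0.84), where 1.96% of all genes tested were higher and 2.9% lower. The list summed to 20999 and 20926 in shOGT cells and to 20748 and 21610 in ctrl cells, most of it from Map2. Dcx, the marker of young neurons, measured 19.1 and 29.2 in shOGT cells against 40.9 and 66.5 in ctrl cells, without passing the test. Rbfox3, a marker of mature neurons, measured 25.5 and 33.0 in shOGT cells against 24.9 and 17.9 in ctrl cells, and it did not pass either. Syn1, a synaptic vesicle protein, measured 303 and 300 in shOGT cells against 249 and 243 in ctrl cells (0.29 ± 0.09, limma adjusted p = 0.111). Of the 13, 10 had a log2 fold change above 0 and the median was 0.21. The part of neuronal cells in the Kif5a value was not tested.

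Kif17, a kinesin-2 motor of dendrites and cilia, measured 149 and 140 in shOGT cells against 90.8 and 118 in ctrl cells. The groups did not overlap and the mean was 1.39-fold higher in shOGT cells, but the gene did not pass (0.48 ± 0.16, limma adjusted p = 0.134). Its log2 fold change was 0.29 without ctrl 1 and 0.67 without ctrl 2, and its exons overlap those of Sh2d5 on the same strand. Kif28 was listed at 10.6 and 3.77 in shOGT cells and at 0.997 and 0 in ctrl cells, too few reads for a fold, and its exons overlap those of Ahctf1 on the same strand.

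None of the abundant vesicle carriers was called. Kif1b measured 11941 and 12568 in shOGT cells against 11785 and 11899 in ctrl cells (0.05 ± 0.04, 95% interval -0.03 to 0.13). Kif1c measured 4362 and 4480 in shOGT cells against 4320 and 4195 in ctrl cells (0.05 ± 0.04). Kif1a measured 3465 and 3203 in shOGT cells against 3536 and 3465 in ctrl cells (-0.07 ± 0.05), with groups that overlapped. Their limma adjusted p-values were 0.505, 0.497 and 0.461, for Kif1b, Kif1c and Kif1a in that order.

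Kif3c, a kinesin-2 motor enriched in neurons, measured 1925 and 1973 in shOGT cells against 2044 and 2096 in ctrl cells (-0.09 ± 0.05, limma adjusted p = 0.338). Kif13a, an endosomal carrier, measured 1568 and 1561 in shOGT cells against 1678 and 1636 in ctrl cells (-0.08 ± 0.05, adjusted p = 0.389 in limma). In both genes the shOGT values lay below the ctrl values without passing the test. Kif3a and Kif3b, the paired motor subunits of heterotrimeric kinesin-2, had log2 fold changes of 0.06 and -0.01, and their shared accessory subunit Kifap3 had -0.12 ± 0.05 (limma adjusted p = 0.238). Kif13b, which binds DLG1, and Kif16b, a carrier of early endosomes, had log2 fold changes of 0.05 and -0.15, and the groups of Kif16b overlapped. Without 1 library at a time the value was -0.098 to 0.083 for Kif3b and -0.32 to 0.018 for Kif16b, so that the direction of both is not settled.

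Among the adaptors that link kinesins to cargo, 2 of 32 tested were higher and 1 lower, with a median log2 fold change of 0.01. Of all genes tested, 1.96% were higher and 2.9% lower. At a mean of at least 100, which 29 of the 32 had, these shares were 3.62% and 5.6%. Trak1, which ties mitochondria to kinesin-1, measured 2756 and 2662 in shOGT cells against 2418 and 2336 in ctrl cells (0.19 ± 0.04, limma adjusted p = 0.0449). Mapk8ip3, the kinesin-1 adaptor JIP3, measured 4094 and 3980 in shOGT cells against 3606 and 3615 in ctrl cells (0.16 ± 0.04, adjusted p = 0.0491 in limma). Appbp2, which resembles kinesin light chains, measured 2138 and 2204 in shOGT cells against 2614 and 2653 in ctrl cells (-0.28 ± 0.04, adjusted p = 0.00897 in limma). In all 3 the groups did not overlap. Of the light chains themselves, Klc1 and Klc2 had -0.07 ± 0.04 and 0.24 ± 0.08, and none of Klc1 to Klc4 passed the test in limma (lowest adjusted p = 0.148).

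Among the kinesins that act on microtubule ends, Kif21a, which restrains growth at the cell cortex, measured 930 and 935 in shOGT cells against 848 and 807 in ctrl cells. Its groups did not overlap and it did not pass (0.17 ± 0.06, limma adjusted p = 0.139). Its neuronal relative Kif21b measured 3049 and 2975 in shOGT cells against 2976 and 3023 in ctrl cells (0.01, 95% interval -0.09 to 0.10). Kif2a, a depolymerase that prunes axon branches and also works at spindle poles, measured 1210 and 1281 in shOGT cells against 1304 and 1273 in ctrl cells (-0.05 ± 0.05). Kif26a and Kif26b, which lack ATPase activity, stayed below 23 in every library.

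The ciliary members gave 0 calls in limma among 6 tested, where 0 also had an unadjusted p under 0.05. Kif7, which acts in Hedgehog signalling at the ciliary tip, measured 352 and 348 in shOGT cells against 314 and 342 in ctrl cells (0.09 ± 0.09). Kif24, which restrains cilium assembly at centrioles, measured 326 and 341 in shOGT cells against 331 and 342 in ctrl cells (-0.01 ± 0.08), and its groups overlapped. Kif19a, which limits the length of motile cilia, measured 81.9 and 97.1 in shOGT cells against 81.8 and 91.3 in ctrl cells (0.05 ± 0.17). Kif6, Kif9 and Kif27 stayed below 30 in every library. Foxj1, which drives motile cilium genes, measured 731 and 677 in shOGT cells against 558 and 620 in ctrl cells (0.26, limma adjusted p = 0.0953), and 3 of the 6 measured ependymal markers stayed below 20. Kif1bp measured 902 and 1066 in shOGT cells against 1035 and 1013 in ctrl cells (-0.06 ± 0.08).

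Exons of 15 of the 38 members overlap those of another annotated gene, and the sources used here do not give whether counting used strand. The longest overlaps with protein-coding genes were those of Kif20a with Cdc23, Kif2a with Dimt1 and Kif4 with Pdzd11, all on opposite strands, so that reads of these pairs may have been counted for either gene. Kif5a has no such overlap.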

How the data were processed

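RNA of 4 libraries (2 shOGT, 2 ctrl) was compared. The deposited files hold 1 signal value per Ensembl gene; per the submitters' processing notes the build is mm10, while aligner, counter, strand setting and normalization were not given in the sources used here. Every deposited value was a whole multiple of 1 step per library (0.943 to 1.06, within 0.01 of a step), as in reads divided by 1 factor; tests for counts were not run. Symbols, positions and exon lengths came from GENCODE M21 on GRCm38, which matched 25250 identifiers and not 11.

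limma 3.58.1 in R 4.3.3 was run on log2(value + 1), with a variance trend, for genes that reached a minimum of 1 in 2 or more libraries, with Benjamini-Hochberg adjustment over all 21829 genes. Fold changes are on that log2 scale, where changes of low genes come out too small. The code of the fit was tested on simulated data with a fixed replicate spread, not one estimated from these libraries. That test does not bear on the calls made here. With 2 libraries a group, the smallest p of an exact permutation test is 0.333, so limma's p and 95% intervals are given.

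The members, role classes and companion lists were chosen with earlier results of these data known. The naming rule gave values per library to called members, to the 6 most abundant mitotic and transport members and the 3 most abundant of each other class, and to members with separated groups, an absolute log2 fold change of at least 0.3 and a mean of at least 50 (21 genes); other members are given more briefly. Of each companion list, the called genes (at most 6, by smallest p) were named by rule, and further genes with known ties to a member were picked after values were seen.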

Additional observations from a re-analysis of the deposited data

How the results depend on the processing

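Of the kinesins, 1 was called lower and 1 higher. At a minimum of 5, at a minimum of 10 and with a pseudocount of 5, Kif11 and Kif15 made 2 lower calls and Kif5a the 1 higher call. With no filter, with quantile normalization and with no variance trend there were 0 calls in limma, and 7, 7 and 3 kinesins had an unadjusted p under 0.05. Over all genes 1060 were called. At a minimum of 5 there were 1819 (1063 lower, 756 higher), and at a minimum of 10 there were 1955 (1133 lower, 822 higher). With no filter, quantile normalization and no variance trend there were 0, where 4302, 3998 and 2763 had an unadjusted p below 0.05. Leaving out 1 library gave 0 calls each time for kinesins and for all genes, while 2484 to 3389 genes and 4 to 7 kinesins had such a p. A lone library is then assumed to vary like the other group.

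The replicate block gave 2 lower kinesins (Kif11, Kif15), 3 higher (Kif5a, Kif17, Kif28) and 2302 calls over all genes (1295 lower, 1007 higher). The libraries of a number share only that number: their deviations correlated at 0.0073.

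The median of the mitotic kinesins was -0.16 to -0.090 without 1 library and below 0 in all settings run. That of the transport kinesins, 0.02, was -0.0078 at a minimum of 5 and at a minimum of 10, where Kif28 is not tested, and -0.0013 to 0.044 without 1 library. Values of uncalled genes changed sign. Kif24 was 0.0044 after rescaling to equal totals, 0.0052 after quantile normalization and -0.044 to 0.020 without 1 library. Leaving out 1 library gave -0.077 to 0.17 for Kif19a, -0.012 to 0.024 for Kif21b, -0.20 to 0.00017 for Kif22 and -0.18 to 0.058 for Kif1bp. It also gave -0.098 to 0.083 for Kif3b and -0.32 to 0.018 for Kif16b, and Kif9, Kif27, Kif26b and Kif2b changed sign as well. The cause was not tested. Tests that model counts, planned for whole reads, were not run. Kif2b, Kif6, Kif26a and Kif28, below 20 in every library, are limited by depth.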
